A study of Mus musculus with 40 samples.

Results

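The step between TCDD doses of 1 and 3 μg/kg was examined by comparing the livers of mice given 3 μg/kg with the livers of mice given 1 μg/kg, without reference to vehicle. Members were chosen by the dose label alone, which gave 5 libraries at each dose and 10 of the 40 libraries of the series. All were from male C57BL/6 mice, 30 days old at the start and 58 days old at the end, gavaged with TCDD in sesame oil every 4 days for 28 days, with 7 administrations in all. The 30 libraries not in the step were sesame oil vehicle and TCDD at 0.03, 0.1, 0.3, 10 and 30 μg/kg, 5 mice each, under the same schedule. Whole liver was sequenced, so that fewer cells of a type and less RNA per cell cannot be told apart in any value below.

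TCDD is the most potent of the chlorinated dioxins and persists in tissue. It binds the aryl hydrocarbon receptor (AhR), which chaperones hold in the cytoplasm until a ligand arrives. The liganded receptor enters the nucleus, pairs with ARNT and binds dioxin response elements, whose core is the pentanucleotide GCGTG. The genes that answer most directly are the CYP1 monooxygenases, other enzymes of xenobiotic metabolism, and the feedback inhibitors AhRR and TIPARP. AhR target genes are known to differ in the dose at which they respond, which makes the interval between neighbouring doses of interest in its own right.

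Reads assigned to genes ranged from 15.6 to 18.1 M per library in the step. No library was a copy of another: across the 20 pairs of mice given the same dose, the chi-square between counts was never below 12.3 per degree of freedom. Each hepatocyte marker was detected at both doses. Of the 10 libraries, 2 stood apart, both at 3 μg/kg. Replicate 5 lay at 71.7 on the first principal component of the step, which carried 24.5% of the variance, while the other 9 mice lay between -27.4 and 15.6. Replicate 2 lay at -46.7 on the second component, which carried 13.3%, while the other 9 lay between -11.6 and 23.2. Its library also had the lowest share of reads in genes of all 40 libraries, 71.27%. It had the highest share of unmapped reads too, 11.28%, the next being 7.72% in a vehicle library. The numbers in the sample titles fall into a run up to 27 and a run from 28, with 3 mice of each dose in the first and 2 of each in the second. What the numbers mark is not stated.

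Of 15373 genes tested, 9 rose from 1 to 3 μg/kg and 0 fell, where a call required an adjusted p under 0.05 and a fold change of at least 1.5 (quasi-likelihood test of edgeR, adjusted by the Benjamini-Hochberg method). The calls made up 0.0585% of the genes in the upward direction and 0% in the downward direction. Without an adjustment, 501 genes (3.26%) were higher and 352 (2.29%) lower at a p under 0.05. DESeq2 called 22 higher and 0 lower, and limma on the deposited log2 values 14 higher and 0 lower. The mice of the groups did not overlap at all for 116 genes (0.755%) in the upward and 88 (0.572%) in the downward direction. The median log2 fold change over all genes was -0.002 and the median SE 0.21. Without replicates 2 and 5 of the 3 μg/kg group, 6 genes were called higher and 0 lower, and the 6 were Col9a2, Mfge8, Serpinb6a, Ovol1, Arhgap10 and Tiparp.

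Fewer genes were called in this step than in the steps on either side of it. From 0.3 to 1 μg/kg 37 genes (0.241%) were called in either direction, and from 3 to 10 μg/kg 1041 genes (6.77%). These steps share the mice at 1 or 3 μg/kg with the step examined here. Against the same 5 vehicle mice, 428 genes (2.78%) were called at 1 μg/kg and 1038 (6.75%) at 3 μg/kg.

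**Figure D1:**
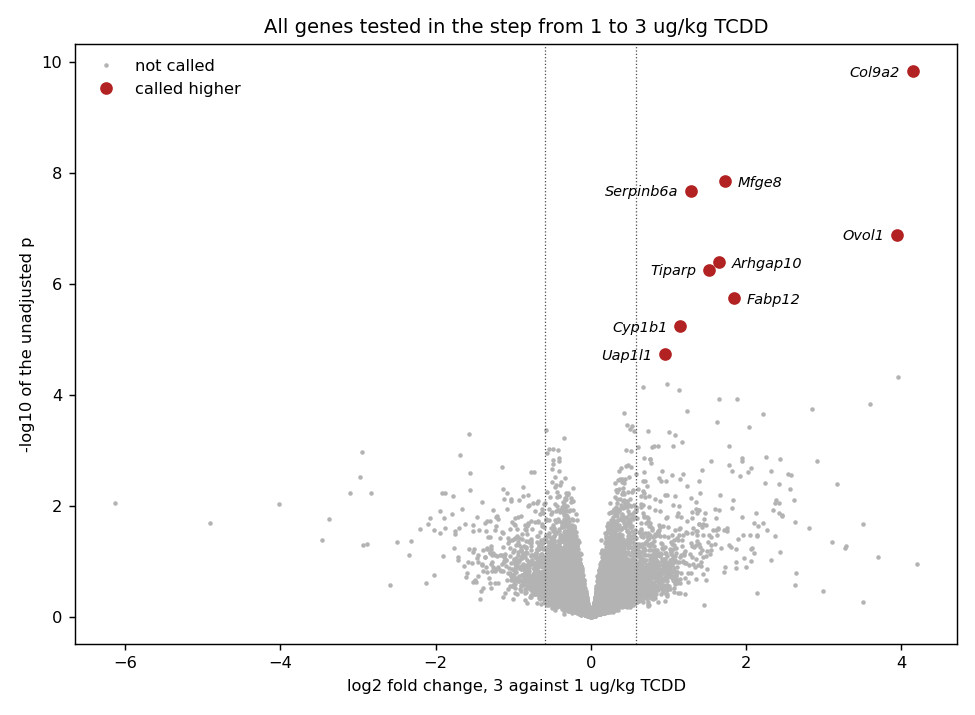
Each point is a gene, with its log2 fold change at 3 against 1 μg/kg TCDD on the x axis and -log10 of the unadjusted p on the y axis, and the dotted lines mark a 1.5-fold change. The 9 called genes (red) all lie on the right, between a log2 fold change of 0.96 for Uap1l1 and 4.15 for Col9a2, and no gene on the left is called.

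The 9 genes that rose belonged to different families. Col9a2 encodes a chain of type IX collagen, best known from cartilage. Ovol1 encodes a zinc finger transcription factor of epithelia, and Fabp12 a fatty acid-binding protein. Mfge8 is the secreted bridge between phosphatidylserine on dying cells and the integrins of phagocytes. Arhgap10 is a GTPase-activating protein, Serpinb6a an intracellular serine protease inhibitor, and Uap1l1 a relative of the pyrophosphorylase that makes UDP-N-acetylglucosamine. Tiparp, a mono-ADP-ribosyltransferase that limits AhR signaling, and Cyp1b1, a CYP1 monooxygenase, are established AhR targets, and they were the only members of any of the 51 gene and marker lists among the 9.

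Promoter windows are printed for the called genes that RefSeq's promoter table (GRCm38.p6) holds under their symbols, since these genes rose together, with Cyp1a1 as the AhR target that did not. A window runs from 250 bases before to 50 after the annotated start, and is written 5′ to 3′ on the strand of the gene. Capitals mark the dioxin response element core, searched as GCGTG on both strands, so that CACGC in capitals is the core on the opposite strand. The windows are chr4:121039316-121039615 (plus strand) for Col9a2, chr7:79149011-79149310 (minus) for Mfge8, chr3:65528197-65528496 (plus) for Tiparp, chr13:34002745-34003044 (minus) for Serpinb6a, chr17:79715012-79715311 (minus) for Cyp1b1 and chr9:57697363-57697662 (plus) for Cyp1a1.
Col9a2: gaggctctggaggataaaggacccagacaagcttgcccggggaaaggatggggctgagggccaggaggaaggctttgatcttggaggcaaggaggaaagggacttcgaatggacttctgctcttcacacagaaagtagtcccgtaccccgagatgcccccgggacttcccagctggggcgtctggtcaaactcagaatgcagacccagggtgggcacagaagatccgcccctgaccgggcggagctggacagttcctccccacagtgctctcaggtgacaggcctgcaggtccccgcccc
Mfge8: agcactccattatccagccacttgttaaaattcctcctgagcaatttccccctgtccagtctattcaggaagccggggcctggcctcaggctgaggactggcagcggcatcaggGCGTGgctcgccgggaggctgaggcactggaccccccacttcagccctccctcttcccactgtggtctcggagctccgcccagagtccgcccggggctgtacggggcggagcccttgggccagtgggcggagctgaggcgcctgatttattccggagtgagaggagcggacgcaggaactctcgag
Tiparp: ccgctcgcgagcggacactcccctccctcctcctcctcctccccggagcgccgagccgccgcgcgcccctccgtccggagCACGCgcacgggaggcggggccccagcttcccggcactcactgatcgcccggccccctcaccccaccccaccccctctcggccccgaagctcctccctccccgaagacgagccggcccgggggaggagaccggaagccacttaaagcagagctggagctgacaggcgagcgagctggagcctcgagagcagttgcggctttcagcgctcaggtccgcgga
Serpinb6a: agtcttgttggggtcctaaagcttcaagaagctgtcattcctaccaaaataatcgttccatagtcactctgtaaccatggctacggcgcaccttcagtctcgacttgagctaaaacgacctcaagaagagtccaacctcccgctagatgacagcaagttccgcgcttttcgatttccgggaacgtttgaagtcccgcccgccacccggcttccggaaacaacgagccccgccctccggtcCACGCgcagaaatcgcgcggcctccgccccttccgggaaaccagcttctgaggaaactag
Cyp1b1: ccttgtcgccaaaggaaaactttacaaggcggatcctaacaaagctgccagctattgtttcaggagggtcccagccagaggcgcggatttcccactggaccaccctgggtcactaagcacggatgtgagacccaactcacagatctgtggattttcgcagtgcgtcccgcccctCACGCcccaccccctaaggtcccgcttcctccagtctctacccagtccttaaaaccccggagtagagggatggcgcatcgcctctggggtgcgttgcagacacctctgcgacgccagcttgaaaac
Cyp1a1: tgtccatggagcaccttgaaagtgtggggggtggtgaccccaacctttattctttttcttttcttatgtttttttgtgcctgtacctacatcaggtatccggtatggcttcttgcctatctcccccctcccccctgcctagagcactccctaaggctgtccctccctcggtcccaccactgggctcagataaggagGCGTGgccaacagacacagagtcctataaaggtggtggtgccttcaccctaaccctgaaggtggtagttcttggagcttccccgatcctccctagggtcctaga

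Of the 9 called genes 5 matched the table by symbol, with 6 windows because Serpinb6a has a second annotated start. Those without an entry are Ovol1, Fabp12, Arhgap10 and Uap1l1. The core was present in 4 of the 6 windows and in 32.4% of all 32851 windows of the table. Its first base as printed lay 136 bases before the start in Mfge8, 170 in Tiparp, 10 in Serpinb6a and 76 in Cyp1b1, and 54 in Cyp1a1. The window of Col9a2 and the second window of Serpinb6a held none. A match of these letters is a description of the window and says nothing of binding in these livers.

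Col9a2 (chr4:121039385-121055322 in GENCODE M21, GRCm38, the annotation used for all gene spans here) showed the largest of the called rises. Its level at 1 μg/kg was 0, 0.478, 0.378, 0.165 and 0.169 CPM (counts scaled to library size) in replicates 1 to 5, which is 0 to 8 reads a library. At 3 μg/kg it was 2.12, 1.97, 3.70, 5.42 and 8.26 CPM, or 33 to 129 reads. All mice at the higher dose lay above all mice at the lower one, and the lowest of the former was several times the highest of the latter. The fold change was 17.7 (95% confidence interval 9.58 to 32.9, adjusted p = 2.3e-06 in edgeR's quasi-likelihood test). On the log2 scale this is 4.15, with 3.15 in the mice with title numbers up to 27 and 5.30 in those from 28, each run of numbers fitted alone. Ovol1 (chr19:5549136-5560646) was at 0.296, 0.120, 0, 0.0551 and 0 CPM at 1 μg/kg and at 0.302, 1.31, 1.00, 2.62 and 2.50 CPM at 3 μg/kg. The groups barely separated, since the highest mouse of the lower dose and the lowest of the higher dose both had 5 reads. Its log2 fold change was 3.95 ± 0.57 (SE, adjusted p = 5.0e-04 in edgeR), from at most 45 reads in any of the 10 mice, and it was 2.57 in the first and 6.21 in the second run of numbers fitted alone. Ovol1 shares exonic bases with the annotated genes AC126029.1 and Gm31166. Reads that fall in several genes were left out of the counts, so its level may be too low.

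Mfge8 (chr7:79133768-79149060) was measured from 244 to 1992 reads a mouse and separated the groups clearly. It stood at 21.0, 34.6, 15.4, 23.4 and 29.8 CPM at 1 μg/kg and at 67.1, 75.4, 48.8, 94.7 and 128 CPM at 3 μg/kg. The lowest mouse of the higher dose exceeded the highest of the lower dose, and the spread at 3 μg/kg was wide (82.7 ± 30.0 CPM, SD, n = 5, against 24.8 ± 7.5). The rise was 3.33-fold (95% confidence interval 2.37 to 4.68, adjusted p = 1.1e-04 in edgeR). Serpinb6a (chr13:33917918-34002794) moved in the same way, from 11.6, 15.5, 17.6, 13.3 and 16.2 CPM to 27.4, 21.5, 35.5, 39.7 and 58.3 CPM. Here too the groups did not overlap, with a fold change of 2.46 (1.90 to 3.18, adjusted p = 1.1e-04 in edgeR). The annotation places exonic bases of Nqo2, Ripk1 and 1110046J04Rik on those of Serpinb6a, so that reads there may be missing from its count.

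Tiparp (chr3:65528410-65555518), the feedback inhibitor, was at 7.77, 6.46, 7.56, 10.4 and 9.87 CPM at 1 μg/kg and at 19.9, 42.0, 21.3, 21.8 and 15.9 CPM at 3 μg/kg. Replicate 2 of the higher dose was the highest by a wide margin, and the other 4 were still above every mouse of the lower dose. The rise was 2.87-fold (2.01 to 4.10, adjusted p = 0.0014 in edgeR). Tiparp shares exonic bases with 4931440P22Rik, so that reads there may be missing from its count. Cyp1b1 (chr17:79701537-79715061), the CYP1 enzyme best known from tissues other than liver, read 100, 77.0, 101, 142 and 88.1 CPM at the lower dose and 195, 228, 269, 238 and 201 CPM at the higher dose. Its groups were separate and tight (102 ± 24.8 and 226 ± 30.0 CPM, SD, n = 5), with a 2.22-fold rise (1.64 to 3.02, adjusted p = 0.011 in edgeR).

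Fabp12 (chr3:10244209-10301183) went from 1.42, 1.67, 1.76, 0.936 and 3.21 CPM to 5.81, 6.39, 6.90, 4.72 and 8.58 CPM, without overlap and by 3.58-fold (2.26 to 5.66, adjusted p = 0.0040 in edgeR). Arhgap10 (chr8:77250366-77517953) went from 2.37, 2.45, 3.09, 2.26 and 3.55 CPM to 5.99, 6.63, 7.34, 7.86 and 15.4 CPM. All 5 treated at the higher dose were above the others, and replicate 5 stood well above its own group, with a fold change of 3.14 (2.15 to 4.59, adjusted p = 0.0013 in edgeR). Arhgap10 shares exonic bases with 0610038B21Rik, with the same limit on its count. Uap1l1 (chr2:25359889-25365682) was the weakest of the calls. It measured 12.8, 9.03, 10.6, 9.20 and 11.8 CPM at 1 μg/kg and 20.1, 12.8, 19.0, 22.7 and 29.2 CPM at 3 μg/kg, so that the top of one group met the bottom of the other at nearly the same level. The rise was 1.94-fold (1.48 to 2.55, adjusted p = 0.032 in edgeR), and the call was lost when any of 8 of the 10 mice was left out. Cyp1b1 lost its call without any of 3 mice (replicates 2 and 5 at 1 μg/kg and replicate 3 at 3 μg/kg), with log2 fold changes of 1.07, 1.11 and 1.08 in those fits. The other 7 genes were called without any single mouse.

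The highest values of the called genes often came from the same mouse. Replicate 5 of the 3 μg/kg group, the library apart on the first component, was the highest of its group in 6 of the 9 genes. Leaving it out left 8 genes called, all but Uap1l1. Without replicate 2, 10 were called, the 9 and Pkp3, which encodes a plakophilin of desmosomes.

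**Figure D2:**
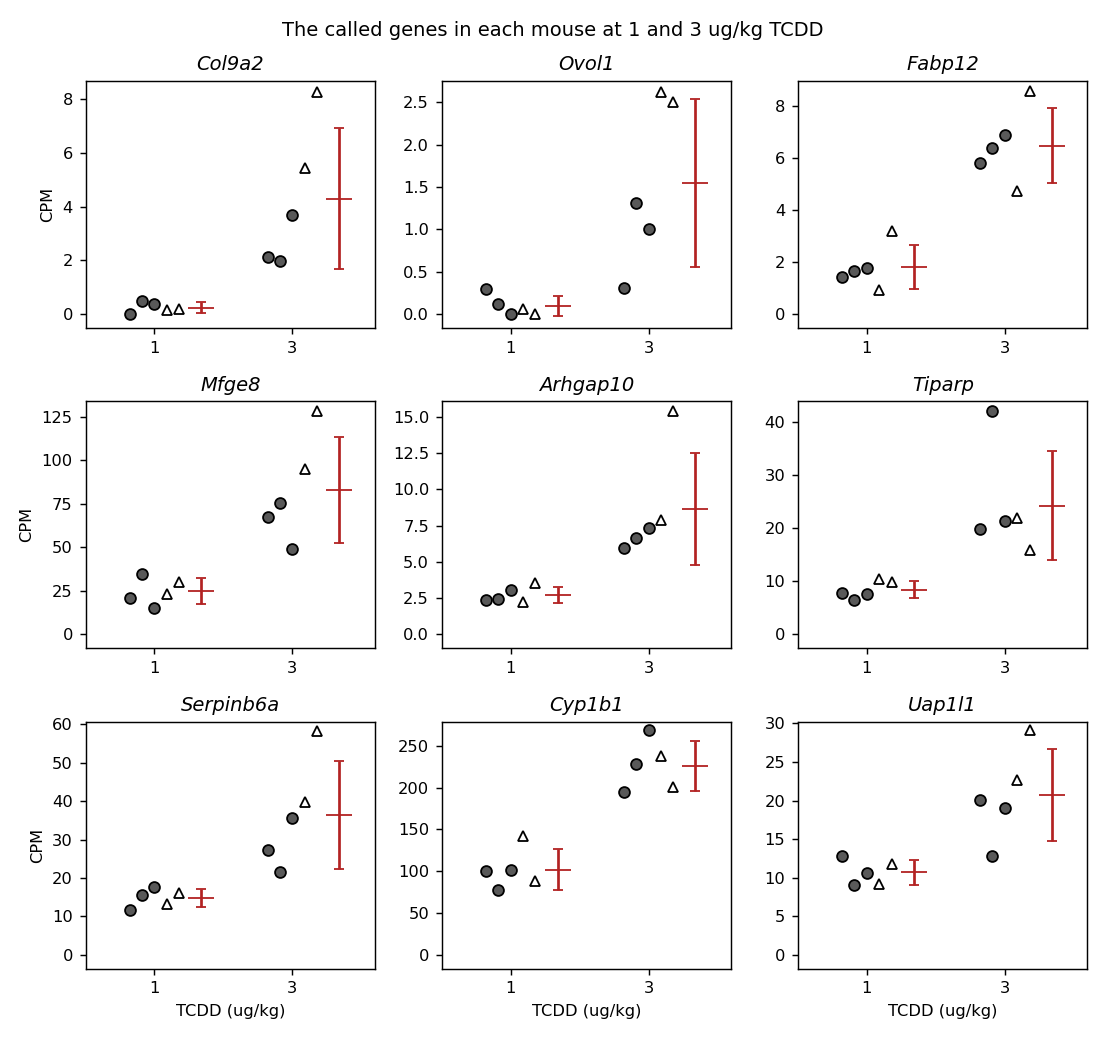
Each panel shows a called gene in CPM (counts scaled to library size, y axis, linear) for each of the 5 mice at 1 and the 5 at 3 μg/kg TCDD (x axis), with filled circles for title numbers up to 27, open triangles for those from 28, and a red bar for the mean ± SD. In every panel the mice at 3 μg/kg lie above those at 1 μg/kg, and in Ovol1 and Uap1l1 the groups nearly meet.

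The rises could be followed in mice whose levels did not enter the contrast. These mice did share its filter on low counts and its estimate of spread. At 10 μg/kg against vehicle, where 2097 genes (13.6%) were called higher and 1250 (8.13%) lower, all 9 genes were called higher. For Ovol1 this call is not a separate check. Ovol1 did not pass the filter in the libraries of the step alone, and entered the test through its reads at doses above the step. Cyp1b1 was at 0.308 CPM in vehicle and 662 CPM at 10 μg/kg, a log2 fold change of 11.07. Fabp12 changed by 6.93, Tiparp by 4.08, Serpinb6a by 3.94, Mfge8 by 3.64, Arhgap10 by 3.60 and Uap1l1 by 3.27 on the same log2 scale. Col9a2 had 1 read in 1 of the 5 vehicle mice and between 67.5 and 106 CPM at 10 μg/kg, and Ovol1 had 0 reads in all 5 vehicle mice and 5.00 to 8.84 CPM, so that no fold change is given for either.

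At 0.3 μg/kg against the same vehicle mice, where 62 genes (0.403%) were called higher, only Cyp1b1 (log2 fold change 3.54, adjusted p = 1.53e-08 in edgeR) and Uap1l1 (1.30, adjusted p = 2.99e-04) of the 9 were called. The values for Mfge8, Serpinb6a, Arhgap10 and Tiparp at that dose were 0.11, 0.01, -0.13 and -0.13. From 10 to 30 μg/kg, where 1626 genes (10.6%) were called higher, 5 of the 9 rose again: Cyp1b1 (log2 fold change 1.30), Mfge8 (0.96), Col9a2 (0.76), Tiparp (0.76) and Uap1l1 (0.62). Fabp12, Arhgap10, Ovol1 and Serpinb6a did not meet both criteria, with values of 0.21, 0.40, -0.21 and 0.53.

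The mean at 3 μg/kg was a small part of the mean at 30 μg/kg in most of these genes. It was 3.02% in Col9a2, 13.9% in Cyp1b1, 16.9% in Tiparp, 19.8% in Serpinb6a, 27.1% in Ovol1, 30.3% in Mfge8, 31.1% in Arhgap10, 32.1% in Fabp12 and 37.6% in Uap1l1. The corresponding shares at 1 μg/kg were 0.168% in Col9a2 and 19.3% in Uap1l1, with the other 7 between 1.65% and 9.86%. In Cyp1a1 the mean was 104% of that at 30 μg/kg at 1 μg/kg and 118% at 3 μg/kg (5980, 6810 and 5770 CPM at 1, 3 and 30 μg/kg).

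**Figure D3:**
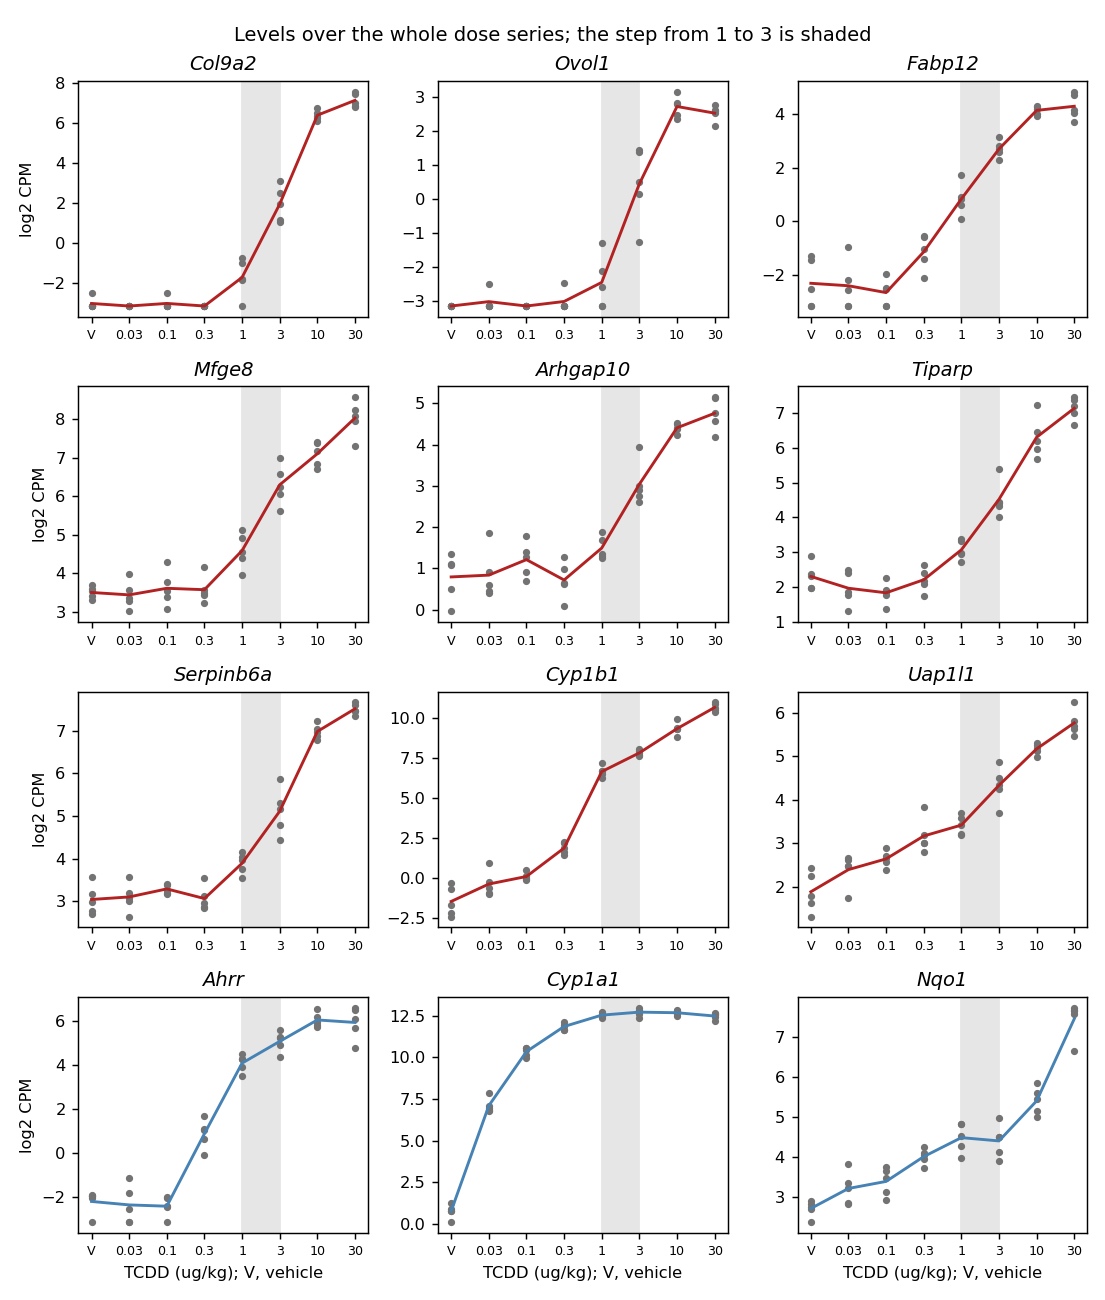
Each panel shows log2 CPM (y axis) of every mouse (grey points, 5 a dose) and the mean of each dose (line) over vehicle (V) and the 7 TCDD doses (x axis, equal spacing), with the step from 1 to 3 μg/kg shaded. The 9 called genes (red) are still rising through the shaded step, while Cyp1a1 (blue) is at 104% of its 30 μg/kg mean at 1 μg/kg and at 118% at 3 μg/kg, and Nqo1 (blue) is higher at 1 μg/kg than in vehicle, level across the step and higher again after it.

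The genes that missed the threshold were read in the same mice outside the contrast. As the filter and the estimate of spread were shared, this is not a fully independent readout. The filter passed 15373 genes over all libraries and 13404 in the 10 libraries of the step alone. Genes below that passed only through other doses were not set apart, and for them a call at 10 μg/kg is not a separate check. Of the 492 genes higher at an unadjusted p under 0.05 and not called, 232 (47.2%) were called higher at 10 μg/kg against vehicle and 5 (1.02%) lower, beside 13.6% and 8.13% of all genes. Of the 352 genes lower at an unadjusted p under 0.05, 115 (32.7%) were called lower and 13 (3.69%) higher. From 10 to 30 μg/kg, 18.3% of the former were called higher and 16.8% of the latter lower, beside 10.6% of all genes in each direction. At 0.3 μg/kg against vehicle 13 of the 492 (2.64%) were called higher and 0 lower, beside 0.403% of all genes called higher. Of the 352, 1 (0.284%) was called lower and 1 higher, too few to read a direction from.

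**Figure D4:**
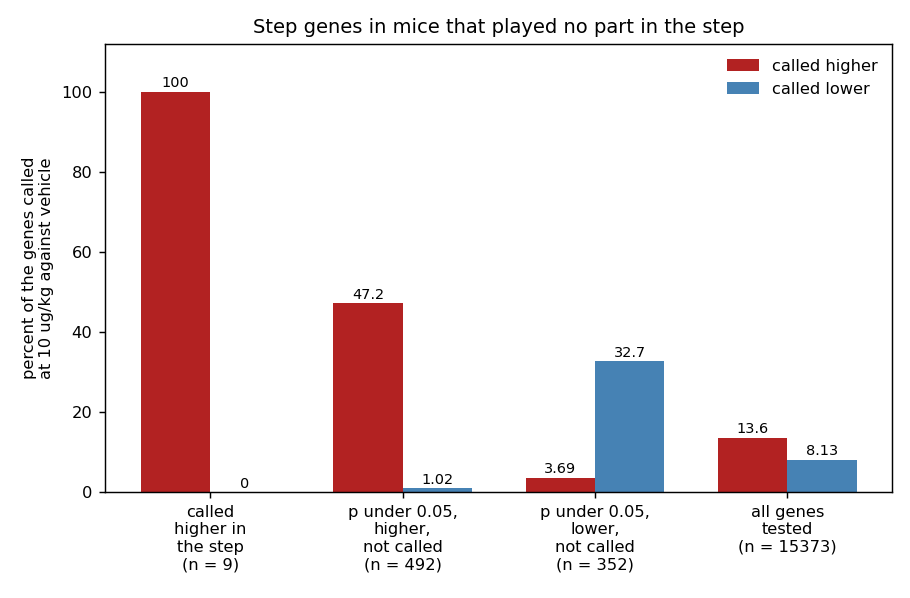
Bars give the percent of genes called higher (red) and lower (blue) at 10 μg/kg against vehicle, for the 9 genes called in the step, the 492 and 352 uncalled genes with an unadjusted p under 0.05 in the upward and downward direction, and all 15373 genes tested. The shares in the direction of the step, 100%, 47.2% and 32.7%, stand above the 13.6% and 8.13% of all genes. The 9 genes include Ovol1, which passed the filter on low counts only through its reads at doses above the step. Genes of the 492 and 352 that passed it only through other doses were not set apart.

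The genes next in line by p are named here after their values were seen. Fut1, a fucosyltransferase of blood group antigens, was at 0, 0.179, 0, 0 and 0 CPM at 1 μg/kg and at 0.423, 0.537, 0.816, 0.757 and 0.704 CPM at 3 μg/kg (adjusted p = 0.075 in edgeR). Prag1, a pseudokinase, had a log2 fold change of 0.98 (adjusted p = 0.091), Shroom3, an actin-binding regulator of epithelial shape, 0.68 (0.093), Pkp3 1.14 (0.099), Pls1, an actin-bundling plastin of microvilli, 1.65 (0.12) and Amn, a partner of cubilin in the intestinal cobalamin receptor, 1.89 (0.12). None of the 6 had overlapping groups. DESeq2 called all 6 higher in the step, limma on the deposited values called Prag1 and Pls1, and the fit of the 10 libraries alone called Pls1. At 10 μg/kg against vehicle the log2 fold change was 4.77 for Fut1, 3.05 for Prag1, 2.67 for Pkp3, 4.24 for Pls1 and 6.98 for Amn, each called. It was 0.48 for Shroom3, which did not reach 1.5-fold.

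On the downward side the lowest p-values belonged to Fnip2, Serpinb1a and Kat2b, also chosen after their values were seen. Fnip2, a folliculin partner, was at 31.4, 32.9, 30.2, 35.0 and 27.3 CPM at 1 μg/kg and at 21.9, 17.4, 23.3, 21.0 and 21.5 CPM at 3 μg/kg. Its groups did not overlap, yet the log2 fold change of -0.58 had an adjusted p of 0.25 in edgeR, and the value at 10 μg/kg against vehicle was -0.08. Serpinb1a, a protease inhibitor of leukocytes, was at -1.56 (adjusted p = 0.26) in the step and -2.98 at 10 μg/kg against vehicle. Kat2b, a histone acetyltransferase, was at -0.34 (adjusted p = 0.29) and -0.54.

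In the AhR battery, 10 of the 11 genes were tested, 2 rose (Tiparp and Cyp1b1) and 0 fell, with a list median of 0.14 beside -0.002 for all genes. Cyp1a1, the classical AhR target, read 6910, 5890, 6050, 5660 and 5370 CPM at 1 μg/kg and 6940, 5290, 6370, 7360 and 8110 CPM at 3 μg/kg. The groups overlapped over most of their range. The log2 fold change was 0.19 with a 95% confidence interval of -0.15 to 0.53 (adjusted p = 0.94 in edgeR), whose upper bound lies under a 1.5-fold rise. Cyp1a2, its neighbour in the genome and the most abundant CYP1 of liver, was at 15800 to 19300 CPM and 14900 to 24200 CPM. Its log2 fold change was 0.19 (-0.08 to 0.46). The unadjusted p-values from edgeR's fit across all genes were 0.26 and 0.17.

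Ahrr, which encodes the AhR repressor, was at 19.1, 14.9, 11.1, 19.3 and 22.2 CPM at 1 μg/kg and at 38.6, 20.2, 30.4, 38.0 and 47.5 CPM at 3 μg/kg. Replicate 2 of the higher dose lay within the lower group and the other 4 above it. The log2 fold change was 1.01 (0.47 to 1.54, adjusted p = 0.25 in edgeR), and Ahrr was called when the run and the position of the title number were covariates. Nqo1, a quinone reductase shared by AhR and NRF2, was at 15.5 to 28.2 CPM and 14.7 to 31.3 CPM, with a log2 fold change of -0.07 (-0.49 to 0.35). Nfe2l2, which encodes NRF2, gave 0.01 (-0.38 to 0.40). The glucuronosyltransferases Ugt1a9, Ugt1a6b and Ugt1a6a gave -0.04 (-0.39 to 0.30), 0.10 (-0.22 to 0.42) and -0.46 (-1.09 to 0.16). These 3 share exons, and reads that fall in several genes were left out of the counts, so each value rests on part of the reads. Both Nqo1 and Nfe2l2 were already higher than in vehicle at 1 μg/kg (log2 fold change 1.81 and 0.83, adjusted p = 3.28e-07 and 0.0075 in edgeR). They were higher again from 3 to 10 μg/kg (log2 fold change 0.99 and 0.71) and from 10 to 30 μg/kg (2.07 and 0.91).

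No other gene list had a called member. Medians of the 36 other gene lists lay between -0.21 (circadian clock) and 0.28 (fetal liver and imprinted genes, 9 tested), beside -0.002 for all genes, and are given as a description. In bile acid synthesis and transport 22 of 27 genes had a negative log2 fold change (median -0.09), in amino acid breakdown and the urea cycle 33 of 44 (-0.09), in fatty acid oxidation 25 of 33 (-0.06) and in the circadian clock 17 of 22 (-0.21). Among interferon-stimulated genes 17 of 23 were negative (-0.15), and among mitochondrially encoded genes 12 of 13 (-0.13). Of all 15373 genes 7728 were negative. In collagens and matrix remodeling 29 of 33 were positive (median 0.20), and Col5a1, a fibrillar collagen chain, had the lowest p of that list (log2 fold change 0.42, adjusted p = 0.70 in edgeR). Propionyl-CoA metabolism (9 genes) and cobalamin uptake and processing (11 genes), lists taken from the study and so not independent of it, had 0 called genes and 0 at an unadjusted p under 0.05, with medians of -0.06 and 0.04.

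In several lists the gene with the lowest p was highest in replicate 2 at 3 μg/kg, the library with the largest share of unmapped reads. Cxcl1, a neutrophil chemokine, was at 2.81 to 15.9 CPM at 1 μg/kg and at 2.42, 219, 4.14, 5.42 and 3.65 CPM at 3 μg/kg. The value of 219 belonged to replicate 2, and without that mouse the log2 fold change of 2.92 became -0.67. The chemokine list had 6 of 23 genes higher at an unadjusted p under 0.05 and a median of 0.17, which was -0.02 without replicate 2. Socs3, an inhibitor of cytokine signaling, was at 4.63 to 7.35 CPM and at 4.72, 82.2, 10.1, 14.0 and 7.11 CPM. Xbp1, a transcription factor of the unfolded protein response, was at 181 to 231 CPM and at 269, 490, 273, 303 and 276 CPM, without overlap also when replicate 2 is set aside, with a log2 fold change of 0.61 (adjusted p = 0.35 in edgeR). The stress list that holds Xbp1 had 5 of 28 genes higher at an unadjusted p under 0.05 and a median of 0.17, or 0.20 without replicate 2.

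Cyp2b13, a cytochrome P450 that female mouse liver expresses more than male liver, had a log2 fold change of 1.93 (adjusted p = 0.52 in edgeR), while the whole female-biased list had a median of -0.08 over 20 genes. Cyp26b1, which degrades retinoic acid, was at 2.55, 21.2, 14.3, 7.32 and 2.42 CPM and at 0.726, 0.955, 2.07, 1.28 and 1.15 CPM. The groups were separate but the spread at 1 μg/kg was wide, and the log2 fold change of -2.94 had an adjusted p of 0.36. Lrat, the enzyme that esterifies retinol in stellate cells, was at 9.25 to 20.0 CPM and 8.56 to 10.8 CPM (log2 fold change -0.68, adjusted p = 0.83). Fgf21, a hormone of fasting, was at 1.83 on the log2 scale (adjusted p = 0.49). None of these passed in the fit of all libraries.

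The 14 marker lists, of hepatocytes, other cells of the liver and cells from outside it, gave 0 calls. In some few genes were tested, such as 3 of 11 for pancreatic acinar cells and 2 of 5 for skeletal muscle. Summed Kupffer cell and macrophage markers were at 544 to 594 CPM at 1 μg/kg and 446 to 769 CPM at 3 μg/kg (18 of 20 positive, median log2 fold change 0.15, or -0.07 without replicates 2 and 5). Summed markers of recruited and lipid-associated macrophages were at 55.3 to 73.1 CPM and 69.7 to 134 CPM, with 10 of 12 positive and a median of 0.30. Summed endothelial markers were at 471 to 599 CPM and 486 to 625 CPM, and those of stellate cells at 268 to 336 CPM and 299 to 464 CPM. Red blood cell markers, positive in 5 of 5 with a median of 0.46, were at 173 to 248 CPM and 195 to 323 CPM.

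Neutrophil markers had the highest median of the lists, 1.81 over 7 of 10 tested, with all 7 positive. The sum was at 5.34, 5.32, 7.12, 4.74 and 5.24 CPM at 1 μg/kg and at 4.6, 36.2, 4.33, 7.11 and 5.12 CPM at 3 μg/kg. All but replicate 2 of the higher dose lay between 4.33 and 7.12 CPM, and without that mouse the median was -0.45. Adipocyte markers had a median of -3.38 over 3 of 6 tested. Cfd, the adipose serine protease adipsin, was at 8.71, 0, 6.80, 0 and 0.113 CPM at 1 μg/kg and at 1.09, 0, 0.314, 0 and 0.064 CPM at 3 μg/kg, so that 2 mice of the lower dose carried the difference. The part of these cells in the 9 called genes was not tested, and the count of 6 called without replicates 2 and 5 is given above.

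**Figure D5:**
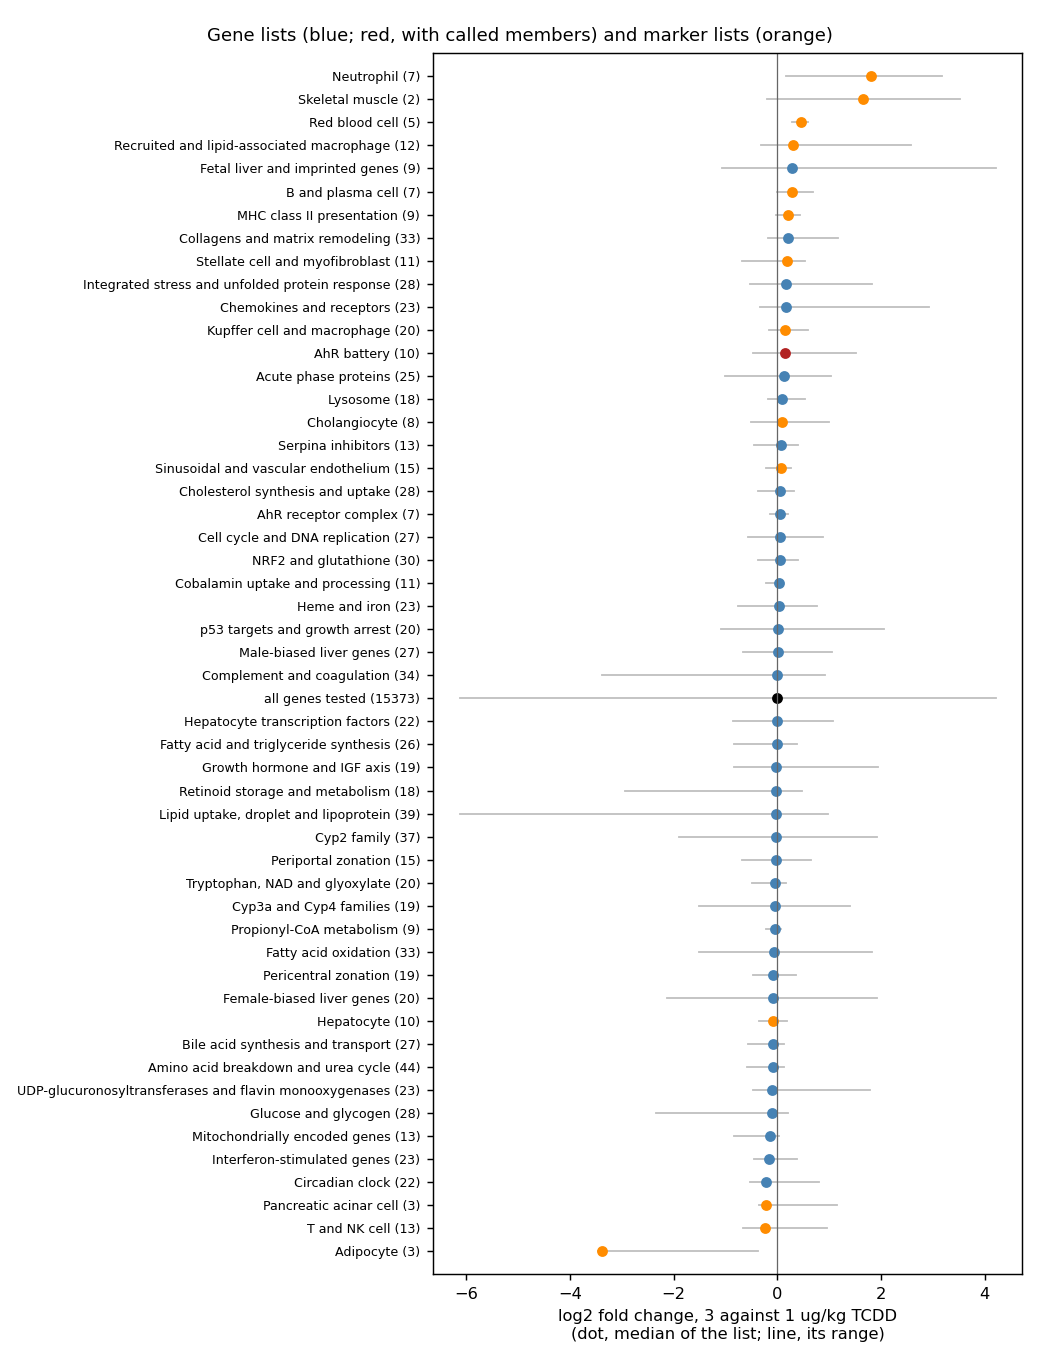
Each row is a gene list or marker list (number of genes tested in parentheses), with the median log2 fold change at 3 against 1 μg/kg TCDD as a dot and the range of its genes as a line (x axis, log2). Most medians lie near the -0.002 of all genes (black), the AhR battery (red) is the only list with called members, and the far dots are neutrophil markers (1.81, or -0.45 without 1 mouse), skeletal muscle (2 genes) and adipocyte markers (-3.38, 3 genes).

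The 9 rises had the same direction in both runs of title numbers. Their groups did not overlap, so this direction was fixed by the same 10 mice and is no separate check. Differences of mean log2 CPM at 3 against 1 μg/kg were 3.03 and 4.61 for Col9a2 in the first and second run, 1.48 and 2.06 for Mfge8, 0.90 and 1.70 for Serpinb6a, 1.31 and 0.97 for Cyp1b1, and 1.84 and 0.88 for Tiparp. For Arhgap10 they were 1.30 and 1.92, for Fabp12 1.90 and 1.80, for Uap1l1 0.66 and 1.29 and for Ovol1 1.99 and 4.28. Fitted alone, the first run (3 mice a dose) gave 0 calls, with 377 genes higher and 350 lower at an unadjusted p under 0.05. The second run (2 mice a dose) gave 4 calls, Col9a2, Mfge8, Ovol1 and Serpinb6a. With the run as a covariate the 9 genes were called again. A test of the difference of the step between runs covered 13404 genes in the 10 libraries. It gave 1 gene with an adjusted p under 0.05 (C730036E19Rik, 0.042 in edgeR) and 2675 at an unadjusted p under 0.05. The step itself, fitted to the same 10 libraries and genes, gave fewer at that unadjusted p, 490 higher and 424 lower. Of the called genes 8 could be tested for the difference between runs. Of these 2 had an unadjusted p under 0.05, the lowest adjusted p being 0.20.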

How the data were processed

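Liver RNA-seq of 40 mice was used, with groups taken from the dose labels. Replicates were numbered by accession and their numbers are names only. For each library the authors deposited gene-level raw counts, made per the labels with FastQC 0.11.7, Trimmomatic 0.39 and STAR 2.7.3a from 150 bp paired-end reads. The submitters' processing notes name GRCm39 and mm10 without saying which was used, so coordinates here are those of GENCODE M21 and RefSeq on GRCm38 and belong to the annotation, not to the counts. The unstranded count column was used. Summary rows (reads unmapped, mapped to several places, in no gene or in several genes; 20.3% to 28.7% of reads in the step) entered neither library sizes nor tests. A table of normalized log2 values, also deposited by the authors, was used only in an alternative with limma, as it stands, although log2(value + 1) had been planned.

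The counts were fitted in edgeR 4.0.16 (R 4.3.3). Genes passing filterByExpr (minimum count 10, minimum total count 15) were scaled by TMM and fitted with 1 mean per dose over all 40 libraries, which share the estimate of spread. Each test was a quasi-likelihood test with Benjamini-Hochberg adjustment over 15373 genes. TMM-scaled library sizes underlie CPM, with a prior count of 2 for log2 CPM. Alternatives used DESeq2 1.42.0, limma 3.58.1, other scalings and filters, covariates from the title numbers, and the omission of mice. With 15.6 to 18.1 M reads in genes, 3 reads correspond to 0.165 to 0.192 CPM. Intervals are for the difference between dose means, with a spread estimated over all 40 libraries, and do not give the range of single mice. Their SE was taken from the log2 fold change and the F statistic of the test. Of 55359 gene identifiers 52083 had a symbol in the reference tables. The step, its gene lists and the rule for named genes were chosen with earlier results of these data known. Named were the called genes whose mean reached 50 counts in the group with more and whose mice did not overlap (Ovol1 fell under that count and is named as well), the called or lowest-p member of each list, and the AhR battery. Some of these are not reported here. Lists carry no test. Scripts were tested on simulated data.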

Additional observations from a re-analysis of the deposited data

Results flagged for a closer look

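Single mice that stood apart from the other 4 of their dose by Dixon's criterion on log2 CPM were looked for in the named genes. Of 128 groups tested 9 were flagged, and chance flags about 1 in 20 groups. Replicate 2 at 3 μg/kg accounted for 5 of the 9. In that mouse Cxcl1 was at 219 CPM, with the others between 2.42 and 5.42. Its Il1r1, the interleukin-1 receptor, was at 163 CPM (others 28.6 to 44.3), Serpina10, an inhibitor of coagulation, at 414 CPM (156 to 198), and Xbp1 at 490 CPM (269 to 303). Hbb-bs, a beta globin, was low there at 67.9 CPM (101 to 113). Replicate 5 at 3 μg/kg had Arhgap10 at 15.4 CPM (5.99 to 7.86) and Aldh6a1, methylmalonate-semialdehyde dehydrogenase, at 260 CPM (357 to 401). Replicate 3 at 1 μg/kg had Hbb-bs at 87.6 CPM (58.5 to 63.0) and the imprinted gene Mest at 1.76 CPM (2.81 to 3.14). Of these genes only Arhgap10 was called in the step, and its call held without that mouse.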

How the results depend on the processing

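The count of 9 genes called higher ranged from 7 to 10 when each mouse was left out in turn. It was 22 with DESeq2, 14 with limma on the deposited table, 0 in the first run of title numbers alone and 4 in the second, where fewer mice were fitted. With run and place in the run as covariates 1 gene, Ebpl, was called lower. The same settings gave 19 (DESeq2), 14 (limma), 0 and 4 (runs alone) of the called genes higher at 10 μg/kg against vehicle, and 1 lower with both covariates. Of the step genes called by each setting, the main fit had 2 that were also called higher at 0.3 μg/kg against vehicle. That count was 4 with DESeq2, 0 in either run and without both mice apart, and 0 to 2 without single mice. The step genes also called higher from 10 to 30 μg/kg were 5 in the main fit, 0 and 1 in the runs, 3 without both mice apart, and 3 to 6 without single mice. Fitted to the 10 libraries alone, 9 genes were called, of which 6 were shared. Serpinb6a and Uap1l1 lost their calls, and Ovol1 did not pass the filter there and was not tested. The 9 genes kept a positive sign in each of the 23 alternatives in which they were fitted (21 for Ovol1). Their groups did not overlap and most alternatives refit the same mice, so the sign had little room to change. Their size was not kept: log2 fold changes ran from 1.96 to 5.30 for Col9a2 and from 1.33 to 6.21 for Ovol1. Both were lowest in the deposited log2 values and highest in the second run alone. Uap1l1 was called in 10 of 23 and Cyp1b1 in 17. The cause of these differences was not tested. No paired analysis was possible because the labels give no replicate number that mice of different doses share. Run and place of the title numbers, whose meaning is not stated, entered as covariates instead.

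Only uncalled genes changed sign. In the second run alone log2 fold changes were -0.25 (Hsp90aa1), -0.15 (Il1r1), 0.10 (Tat), 0 (H2-Ob), -0.049 (S100a8), -0.013 (Cela2a), 0.14 (Ugt1a9), -0.10 (Nfe2l2) and 0.50 (Nqo1), and in the first -0.007 (Gstm2), -0.048 (Cyp1a2) and -0.03 (Cyp1a1). Without both mice apart they were -0.016 (Serpina10), -0.64 (Cxcl1), 0.064 (Ugt1a9) and 0.16 (Nqo1). Without single mice they ranged from -0.06 to 0.86 for Il1r1, -0.67 to 3.62 for Cxcl1, -0.11 to 0.047 for Ugt1a9, -0.10 to 0.11 for Nfe2l2 and -0.24 to 0.042 for Nqo1. Nfe2l2 was at -0.003 under total count scaling. The fit without both mice apart was added after the data were seen.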
